A study of Mus musculus with 12 samples.

Results

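Maternal RNA was followed from the germinal vesicle (GV) stage to the stage labelled metaphase II (MII) in *Alkbh5*-/- (KO) mouse oocytes, to see which functions were still cleared and which were kept without ALKBH5. The comparison rests on 4 of the 12 libraries of the series, chosen by their genotype and stage labels: 2 KO GV libraries and 2 KO MII libraries. The other 8 were WT libraries of 3 stages and KO libraries of germinal vesicle breakdown (GVBD), the resumption of meiosis. Both KO groups, like the WT groups, came from 3-week-old females on a C57BL/6 background primed with pregnant mare serum gonadotropin (PMSG). The KO mice carried a deletion in every tissue, so the oocyte had lacked ALKBH5 throughout its growth. GV oocytes freed of cumulus cells were held in a meiotic inhibitor, released and cultured in vitro, and small pools with the zona pellucida removed made up each library. The study calls the 2 libraries of a group biologically independent, but gives no animal for either, so p-values measure the spread between these libraries.

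The stage label says less in KO than in WT. Oocytes were taken by time in culture. The study states that most cultured KO oocytes stayed at the GV stage without GVBD, and that few released a polar body. "KO MII" therefore names a culture time rather than an observed arrest. The study's text does not say whether KO oocytes were picked by stage for these libraries, nor how many of them had resumed meiosis. The methods describe oligo(dT) priming and PCR amplification of full-length cDNA after a synthetic ERCC RNA mix was added to each tube. Sample labels give an extraction protocol for another, bulk preparation.

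As background, a growing oocyte fills its cytoplasm with stable mRNA and then stops transcription. On resumption of meiosis many of these mRNAs lose their poly(A) tails through the CCR4-NOT deadenylase, with BTG4 as its adaptor, and are destroyed, while others gain a tail under cytoplasmic polyadenylation elements (CPEs) in their 3′ UTR and are translated. ALKBH5 is a demethylase that removes *N*6-methyladenosine (m6A), a mark on mRNA that reader proteins recognise when they stabilise a transcript or direct its decay.

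Counts were divided by the ERCC sum of each library relative to the mean of the 12 libraries, and are called scaled counts here. *Alkbh5* itself stood at 260 and 94.4 scaled counts in the KO GV libraries and 94.1 and 50.9 in the KO MII libraries, against 3020 to 8505 in the 4 WT libraries of the same stages. All 10 oocyte markers were detected in all 4 KO libraries. Of 20 cumulus and granulosa markers 10 were abundant enough to test, 5 to 9 of the 20 had no count in a library, and the list summed to 1720 to 2201 scaled counts in the 4 libraries. Markers of blood and immune cells and of striated muscle were higher at GV: the blood list summed to 161588 and 237361 at GV and to 32796 and 337 at MII, and the muscle list to 36970 and 29563 against 12472 and 2419. No marker of either list was at 0 at GV, while at MII 2 and 5 of 15 blood markers and 7 and 9 of 15 muscle markers were. *Tnni3* and *Ttn* of the muscle list are also expressed in oocytes. The part of these other transcripts in the results was not tested.

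Both KO MII libraries held less endogenous RNA per spike-in than the KO GV libraries, to different degrees. Per ERCC count the KO GV libraries held 128 and 111 endogenous counts, KO MII replicate 1 held 87.9 and replicate 2 held 54.7. These are 73.5% and 45.8% of the GV mean. In WT the values were 105 and 98.9 at GV and 73.3 and 47.0 at MII, and the MII to GV ratio of the means was 0.597 in KO and 0.590 in WT. The median over the 18777 genes tested was −0.71 on the log2 scale in KO MII replicate 1, which leaves 61.1% of the GV level, and −1.97 in replicate 2, which leaves 25.6%. The KO GV libraries stood 0.14 above and 0.15 below their own mean by the same median. In a pooled library, fewer intact oocytes and less RNA in each oocyte cannot be told apart, and oligo(dT) priming also responds to tail length.

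A gene was called when its edgeR adjusted p was under 0.05 and its log2 fold change at least 1 in size. By this rule 615 genes (3.28%) fell in KO and 1 (0.00533%) rose, while 4626 (24.6%) had an unadjusted p under 0.05. The calls lay close to the threshold: all 616 had adjusted p between 0.030 and 0.05, and 1583 more lay between 0.05 and 0.10. With the low-count filter applied to ERCC-scaled library sizes 222 genes fell and none rose. Without KO GV replicate 1, 39 genes fell, and 31 of them were among the 615. Without KO GV replicate 2, 53 fell, 46 of them among the 615. Without KO MII replicate 1, 11013 fell and 62 rose, and without KO MII replicate 2, 3431 fell and 87 rose, all 615 included each time. DESeq2 gave 3052 lower (16.3%) and 16 higher (0.0852%).

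In scaled counts without a model, the MII libraries both lay under both GV libraries for 11520 genes (61.4%) and above both for 674 (3.59%), and 1055 (5.62%) were above the GV mean in both. A decline of at least 2-fold from the GV mean was present in both MII libraries for 7309 genes (38.9%), in replicate 2 alone for 6348 (33.8%) and in replicate 1 alone for 411 (2.19%). Scaling within the endogenous pool by TMM, which removes the common decline, moved the median fold change from −1.17 to −0.14 and gave 727 lower (3.87%) and 224 higher (1.19%) genes. Functions are therefore described by their position against the median of each MII library.

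Of 27 lists of functions, 9 had a median under the all-gene median in both KO MII libraries and are called cleared here. A further 16 had a median above it in both and are called kept, and 2 lay on different sides. The kept lists still had negative median log2 fold changes against ERCC, all 16 of them, and all 16 had positive medians with TMM scaling. The 9 cleared lists were negative on both scales. The lists and the words cleared and kept are descriptions of position, and no list was tested as a set. Position also went with abundance. Of 5 equal groups of genes by mean count, the lowest had medians of −1.32 and −2.80 in replicates 1 and 2. The highest had −0.22 and −1.25. The lists were not matched for count, so a kept list can still lie under genes of like count.

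**Figure D1:**
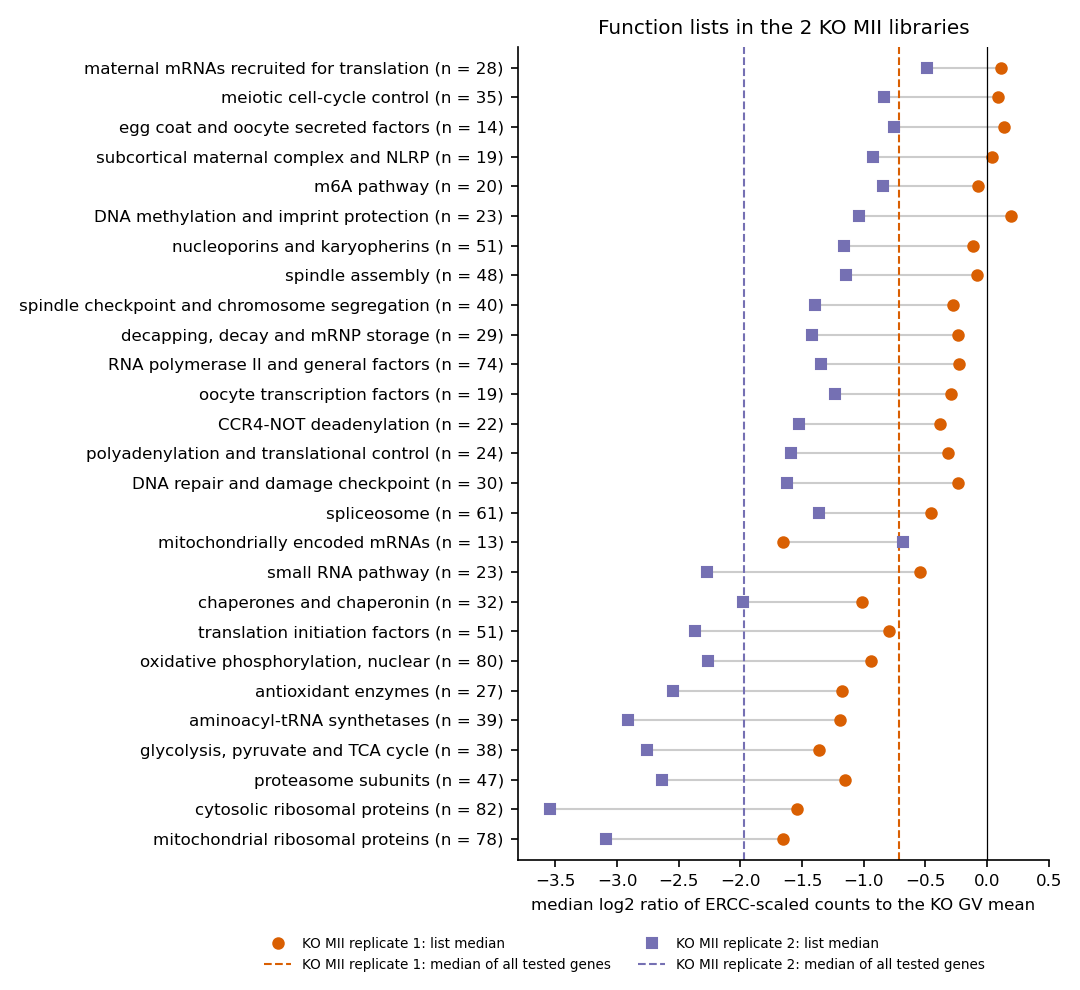
Median log2 ratio of scaled counts to the KO GV mean for 27 lists of functions (vertical axis), with circles for KO MII replicate 1, squares for KO MII replicate 2 and dashed lines for the medians of all tested genes, −0.71 and −1.97. Mitochondrial ribosomal proteins lie farthest to the left in replicate 1 (−1.66) and cytosolic ribosomal proteins in replicate 2 (−3.54), while the recruited mRNAs stand at 0.12 and −0.49.

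The mRNAs of the 2 ribosomes, cytosolic and mitochondrial, had the lowest median fold changes of the 27 lists. Cytosolic ribosomal protein mRNAs, which encode the structural proteins of the ribosome, left 34.3% of their GV level at the list median in MII replicate 1 and 8.60% in replicate 2. Of 82 tested members 17 fell, beside 3.28% of all genes, and none rose. Both MII libraries lay under both GV libraries for 77 of them, beside 61.4% of all genes. Their share of the endogenous counts was 2.12% and 2.14% at GV and 1.14% and 0.72% at MII. The list median log2 fold change was −2.22, against −1.17 for all genes. Without KO GV replicate 1 or 2 the members called lower numbered 2 and 1, and without KO MII replicate 1 or 2 they numbered 75 and 53.

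*Rpl26*, a large-subunit protein, had 62248 and 52662 scaled counts at GV and 3510 and 1101 at MII. It fell by 4.64 ± 0.69 on the log2 scale (SE, edgeR adjusted p = 0.030). *Rps27a*, which encodes a ubiquitin fused to a small-subunit protein, had 21970 and 25521 at GV and 1175 and 453 at MII and fell by 4.87 ± 0.69 (edgeR adjusted p = 0.030). In both genes the groups lay more than an order of magnitude apart and MII replicate 2 was the lower library. *Rpl39*, a small protein of the exit tunnel, had 47535 and 41394 at GV and 21762 and 9327 at MII, a log2 fold change of −1.52 ± 0.55 that did not pass (edgeR adjusted p = 0.13). *Rps29* had 7146 and 6894 at GV and 6743 and 7016 at MII, so its groups overlapped. Its log2 fold change was −0.03 ± 0.53 (edgeR adjusted p = 0.98). Ribosomal protein genes have many near-identical processed copies, and reads kept only when uniquely mapped can undercount them.

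Mitochondrial ribosomal proteins, which translate the mRNAs made inside mitochondria, went as low. Their medians left 31.7% in MII replicate 1 and 11.7% in replicate 2. Of 78 members 14 fell, none rose, and 72 did not overlap between stages, all 72 lower at MII, beside 3.28% called and 61.4% lower without overlap over all genes. *Mrpl58*, a release factor built into the large subunit, had 5628 and 5102 scaled counts at GV and 247 and 82.4 at MII. It fell by 5.03 ± 0.78 on the log2 scale (edgeR adjusted p = 0.030). *Mrpl14* had 1202 and 1111 at GV and 42 and 27.2 at MII and fell by 5.06 ± 0.81 (edgeR adjusted p = 0.031). Both MII libraries of these genes were far under both GV libraries. *Mrpl45* had 3172 and 2779 at GV and 3639 and 2364 at MII, one library above and one below GV, and a log2 fold change of 0.01.

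**Figure D2:**
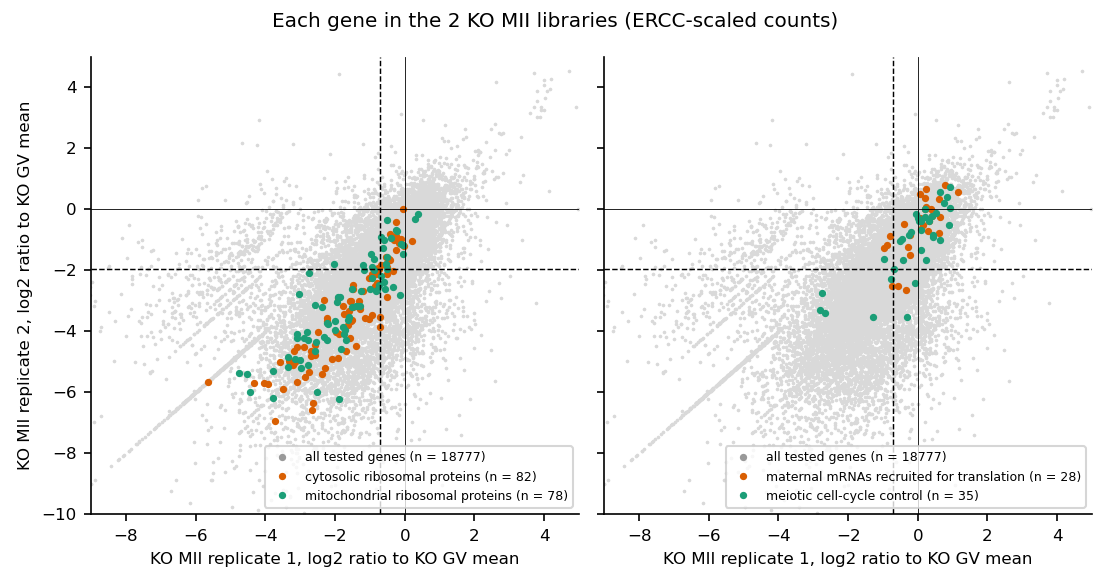
Log2 ratio to the KO GV mean of each gene in KO MII replicate 1 (horizontal axis) and replicate 2 (vertical axis), with cytosolic and mitochondrial ribosomal protein genes in the left panel, recruited mRNAs and meiotic control genes in the right panel, all tested genes in grey and dashed lines at the library medians. Ribosomal genes fill the lower left of their panel, while most recruited and control genes lie above the dashed medians, with list medians of 0.12 and 0.09 in replicate 1 and −0.49 and −0.83 in replicate 2, and 38 of all genes fall outside the axes.

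Factors around the ribosome were cleared less deeply. Translation initiation factors left 57.7% and 19.3% at the list median in MII replicates 1 and 2. In replicate 1 this was close to the 61.1% of all genes, so the list was under the median clearly in replicate 2 only. Of 51 members 6 fell, beside 3.28% of all genes. Both MII libraries lay under both GV libraries for 33 of them, near the 61.4% of all genes. *Eif4e2*, a cap-binding protein that represses translation, had 6085 and 7745 scaled counts at GV and 761 and 242 at MII and fell by 3.79 ± 0.73 (log2, edgeR adjusted p = 0.037). Aminoacyl-tRNA synthetases, which charge tRNAs, and their scaffold proteins left 43.9% and 13.3%, and 2 of 39 fell, a share near the 3.28% of all genes. One was *Aimp2*, a scaffold of the synthetase complex, with 3752 and 2699 at GV and 310 and 77.4 at MII, and it fell by 4.06 ± 0.83 (log2, edgeR adjusted p = 0.041). The groups of both genes did not overlap.

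The proteasome was cleared too. Its subunits left 44.9% and 16.1% at the list median, 7 of 47 fell, and 42 had both MII libraries under both GV libraries, beside 3.28% and 61.4% of all genes. *Psma6*, a subunit of the 20S core, had 28247 and 27240 scaled counts at GV and 3619 and 1274 at MII and fell by 3.50 ± 0.65 (log2, edgeR adjusted p = 0.035). *Psmb1*, a core subunit of the inner ring, had 17211 and 15503 at GV and 2025 and 742 at MII and fell by 3.56 ± 0.67 (edgeR adjusted p = 0.035). *Psmd1*, a scaffold of the 19S cap, had 4714 and 4728 at GV and 9110 and 4715 at MII. Its MII replicate 1 was the highest library, replicate 2 lay at the GV level, and the log2 fold change of 0.55 ± 0.57 did not pass (edgeR adjusted p = 0.58). Chaperones, which fold new proteins, left 49.4% in replicate 1 but 25.4% in replicate 2, next to the 25.6% of all genes there, so they were under the median clearly in one library only. Among them 27 of 32 did not overlap and were lower at MII, beside 61.4% of all genes, yet none was called by edgeR. An unadjusted p under 0.05 was present in 16 and DESeq2 called 7 lower, beside 24.6% and 16.3% of all genes.

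Energy metabolism formed the third cleared group. Nuclear genes of oxidative phosphorylation, the respiratory complexes and ATP synthase, left 52.0% of GV in MII replicate 1 and 20.9% in replicate 2. Of these 80 genes 10 fell, beside 3.28% of all genes. *Ndufb7*, an accessory subunit of complex I, had 2094 and 1854 scaled counts at GV and 116 and 22.2 at MII and fell by 4.84 ± 0.94 (log2, edgeR adjusted p = 0.037). *Ndufb10* of the same complex had 1855 and 1558 at GV and 121 and 26.5 at MII and fell by 4.54 ± 0.91 (edgeR adjusted p = 0.040). Both fell in replicate 2 to the lowest level of the 4 libraries. Their partners varied, since *Ndufa10*, also of complex I, had 2249 and 1875 at GV and 2984 and 2263 at MII, with both MII libraries above both GV libraries and a log2 fold change of 0.35. *Cox6b1* of complex IV had 23301 and 21445 at GV and 32519 and 18206 at MII, with the 2 MII libraries on either side of GV, and a log2 fold change of 0.18. The ATP synthase gene *Atp5j2* had 145749 and 132350 at GV and 56128 and 14231 at MII, a log2 fold change of −1.98 ± 0.62 that did not pass (edgeR adjusted p = 0.088).

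Enzymes of glycolysis, pyruvate use and the citric acid cycle left 39.0% and 14.8%, and 2 of 38 fell, near the 3.28% of all genes. *Aldoa*, the glycolytic aldolase, had 3710 and 2488 scaled counts at GV and 374 and 70.2 at MII and fell by 3.80 ± 0.88 (log2, edgeR adjusted p = 0.048). *Mdh1*, cytosolic malate dehydrogenase, had 13249 and 14583 at GV and 16814 and 12925 at MII, with one MII library above and one below GV. Antioxidant enzymes left 44.2% and 17.2%, and 2 of 27 fell, beside the same 3.28%. They were *Cat*, catalase, with 945 and 716 at GV and 43 and 55.9 at MII, and *Gstm1*, a glutathione transferase, with 362 and 693 at GV and 8.01 and 14.3 at MII. *Cat* fell by 4.06 ± 0.79 and *Gstm1* fell by 5.53 ± 0.95 (log2, edgeR adjusted p = 0.037 and 0.031). By contrast *Prdx1*, a peroxiredoxin, had 96970 and 90905 at GV and 105582 and 84249 at MII and a log2 fold change of 0.01.

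mRNAs made inside mitochondria lay on different sides of the all-gene median in the 2 MII libraries, unlike the nuclear list. Both MII libraries still lay under both GV libraries for 11 of 13, and for 68 of 80 in the nuclear list, beside 61.4% of all genes. Their median left 31.8% in MII replicate 1, under the library median, and 62.4% in replicate 2, above it. Of 13 genes 1 fell, beside 3.28% of all genes. This was *mt-Atp6*, a subunit of ATP synthase, but its GV libraries differed, with 26456 and 3461 scaled counts against 603 and 966 at MII. The log2 fold change was −4.25 ± 0.92 (edgeR adjusted p = 0.044). *mt-Co3*, a subunit of complex IV, had 27714 and 17984 at GV and 20251 and 21245 at MII, so its groups overlapped. The list median was −1.05 against ERCC and 0.39 with TMM scaling, so its sign depends on the scaling.

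**Figure D3:**
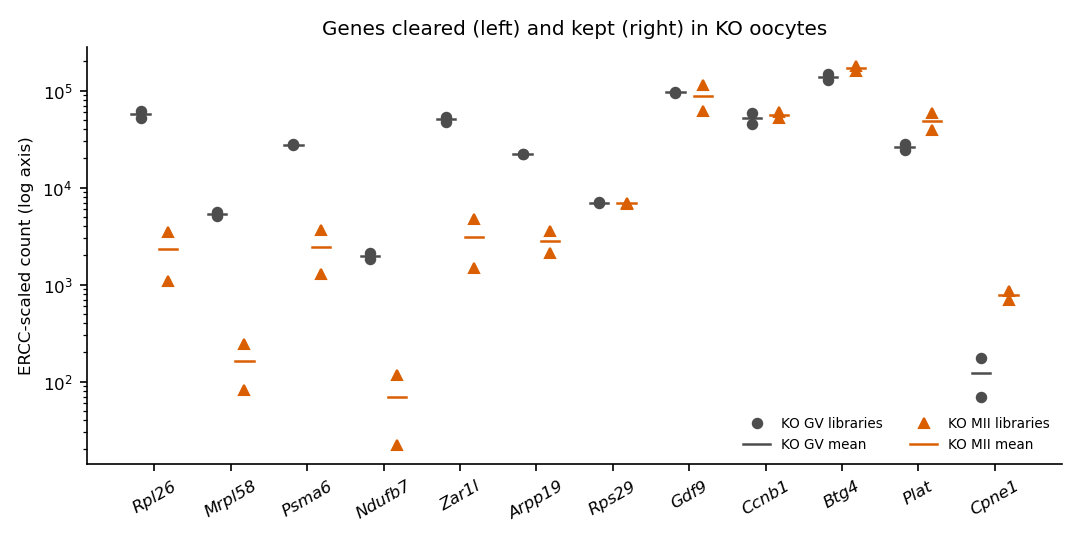
ERCC-scaled counts (log axis) of 12 genes in each KO library, with circles for GV, triangles for MII and bars for the mean of 2 libraries. *Rpl26*, *Mrpl58*, *Psma6*, *Ndufb7*, *Zar1l* and *Arpp19* lie far lower at MII in both libraries, *Rps29*, *Ccnb1* and *Btg4* lie near their GV level, *Gdf9* lies on either side of it, and *Plat* and *Cpne1* lie above it.

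At the other end stood mRNAs known to be recruited for translation during maturation. Their median was 108.4% of the GV level in MII replicate 1 and 71.3% in replicate 2 and their median log2 fold change of −0.11 was the highest of the 27 lists. None of 28 was called on ERCC by edgeR or DESeq2, beside 3.28% and 16.3% of all genes called lower. An unadjusted p under 0.05 was present in 1, beside 24.6% of all genes. Of the 28 members 11 had both MII libraries under GV and 6 had both above, beside 61.4% and 3.59% of all genes. Because the pool around them shrank, their share of the endogenous counts was 2.78% and 2.72% at GV and 3.66% and 5.48% at MII.

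Short stretches of 3′ UTR around the CPE are printed for 5 of the 8 genes of this list that hold it, 4 with log2 fold changes above 0 and *Spin1*, which was lower in both MII libraries. The capitals mark the element, TTTTAT or TTTTAAT, read on the strand of the transcript from GENCODE M21 on GRCm38.
*Btg4*, chr9:51119801-51119822, + strand: aaatccctTTTTATgtcttttt
*Cnot7*, chr8:40493042-40493063, − strand: aaggtacaTTTTATatcaataa
*Wee2*, chr6:40466760-40466782, + strand: ttaacataTTTTAATccagatca
*Plat*, chr8:22782748-22782770, + strand: tatttataTTTTAATctatttta
*Spin1*, chr13:51152477-51152498, + strand: taagtaatTTTTATaattatga
The element began 67 bases before the 3′ UTR end in *Btg4*, 20 in *Cnot7*, 46 in *Wee2*, 89 in *Plat* and 62 in *Spin1*.

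*Btg4*, the deadenylase adaptor, had 149244 and 127043 scaled counts at GV and 158870 and 179320 at MII. Both MII libraries lay above both GV libraries, and the log2 fold change was 0.29 ± 0.40 (edgeR adjusted p = 0.69). *Cnot7*, a catalytic deadenylase, had 28579 and 27161 at GV and 32962 and 29333 at MII, again without overlap, and a log2 fold change of 0.16. *Plat*, tissue plasminogen activator, a long-known case of cytoplasmic polyadenylation, had 24674 and 27931 at GV and 58804 and 38925 at MII. Its libraries did not overlap, and the log2 fold change of 0.89 ± 0.48 did not pass (edgeR adjusted p = 0.28), while with TMM scaling it was 2.01 (edgeR adjusted p = 0.045). *Spin1*, a chromatin reader, had 237877 and 186545 at GV and 109317 and 87143 at MII, lower in both libraries with a log2 fold change of −1.11, although it holds the element. *Ccno*, a cyclin-like protein, gave 7201 and 7549 at GV but 10 and 1701 at MII, so the 2 MII libraries disagreed widely.

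The meiotic control genes had medians at 106.6% of GV in MII replicate 1 and 56.2% in replicate 2. Both MII libraries lay under both GV libraries for 12 of 35 and above both for 3, beside 61.4% and 3.59% of all genes. *Ccnb1*, the cyclin of the maturation promoting factor, had 58346 and 45068 scaled counts at GV and 60212 and 51633 at MII, overlapping, with a log2 fold change of 0.11 ± 0.45 (edgeR adjusted p = 0.90). *Mos*, the kinase upstream of the MAP kinase arrest, had 10674 and 9527 at GV and 13507 and 8652 at MII. *Wee2*, an inhibitory kinase of CDK1, had 25666 and 22516 at GV and 30180 and 18562 at MII. In both kinases replicate 1 lay above and replicate 2 below the GV range. *Cdc20*, an activator of the anaphase promoting complex, had 2307 and 2262 at GV and 4355 and 3788 at MII. Its log2 fold change was 0.83 ± 0.56 on ERCC (edgeR adjusted p = 0.38) and 2.03 with TMM scaling (edgeR adjusted p = 0.047).

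Of these 35 genes 2 fell, beside 3.28% of all genes. *Arpp19*, the phosphatase inhibitor acting with MASTL, had 22338 and 22328 scaled counts at GV and 3540 and 2100 at MII and fell by 2.99 ± 0.57 (log2, edgeR adjusted p = 0.036). *Ccnh*, the cyclin of the CDK-activating kinase, had 2483 and 1762 at GV and 304 and 216 at MII and fell by 3.03 ± 0.69 (log2, edgeR adjusted p = 0.046). In both, every MII library was several-fold under every GV library.

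Genes of the decay machinery lay above the all-gene median in both MII libraries. CCR4-NOT deadenylation genes left 76.8% and 34.8% at the median, log2 values of −0.38 and −1.52. Their median count of 1148 lay in the highest of the 5 groups by count, whose medians were −0.22 and −1.25, so this list lay under that group. None of 22 was called by edgeR, and 2 had an unadjusted p under 0.05, beside 24.6% of all genes. DESeq2 called 1 lower, beside 16.3% of all genes. *Cnot9*, a core subunit that contacts RNA-binding proteins, had 9376 and 6635 scaled counts at GV and 14913 and 16914 at MII, without overlap, and a log2 fold change of 0.99 ± 0.52 that did not pass (edgeR adjusted p = 0.27). *Cnot6l*, the other catalytic deadenylase type, had 6323 and 4520 at GV and 6605 and 3345 at MII. Among decapping, decay and storage factors 1 of 29 fell, beside 3.28% of all genes. This was *Zar1l*, an RNA-binding protein of oocytes, with 53992 and 47852 at GV and 4740 and 1488 at MII. It fell by 4.03 ± 0.67 (log2, edgeR adjusted p = 0.031).

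Genes of the m6A pathway lay above the all-gene median in both MII libraries. The 20 tested members include the deleted *Alkbh5*, whose log2 fold change of −1.29 was the lowest of the list. The list median left 95.2% in replicate 1 and 55.9% in replicate 2. Both MII libraries lay under both GV libraries for 10 members, beside 61.4% of all genes. None was called by edgeR or DESeq2, beside 3.28% and 16.3% of all genes called lower. No member had an unadjusted p under 0.05, beside 24.6% of all genes. *Ythdf2*, a reader that directs decay, had 8009 and 5996 scaled counts at GV and 3952 and 3400 at MII, and *Wtap*, an adaptor of the methyltransferase, had 15164 and 10909 at GV and 5914 and 6101 at MII. Both genes had non-overlapping groups with MII the lower, with log2 fold changes of −0.93 and −1.12. These lay near the all-gene median of −1.17 and under the list median of −0.29.

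Lists of oocyte-specific genes were also kept. Subcortical maternal complex and NLRP genes, whose proteins form a cortical lattice needed in the early embryo, left 102.6% and 52.8% at the median. None of 19 was called by edgeR or DESeq2, beside 3.28% and 16.3% of all genes called lower. An unadjusted p under 0.05 was present in 1, beside 24.6% of all genes. *Nlrp5*, its founding member, had 42583 and 32298 scaled counts at GV and 36685 and 24886 at MII, overlapping. *Ooep*, a subunit with a KH-like domain, had 293346 and 216438 at GV and 155222 and 89114 at MII, lower in both libraries, with a log2 fold change of −1.06. *Nlrp* genes are a family of close copies, so their counts are uncertain under unique mapping.

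Egg coat and secreted factors left 110% and 59.2%, and none of 14 was called by edgeR, beside 3.28% of all genes called lower. An unadjusted p under 0.05 was present in 1 and DESeq2 called 1 lower, beside 24.6% and 16.3% of all genes. *Gdf9*, a growth factor signalling to cumulus cells, had 93864 and 97310 scaled counts at GV and 114403 and 61944 at MII. *Bmp15*, its partner, had 48906 and 42433 at GV and 72161 and 44532 at MII. In both genes replicate 1 was the highest of the 4 libraries. *Zp2*, a zona pellucida protein, had 66539 and 58065 at GV and 59404 and 29092 at MII, and *Oosp1*, an oocyte-secreted protein, had 155189 and 151933 at GV and 263860 and 269546 at MII. The log2 fold change of *Oosp1* was 0.80 ± 0.38 and did not pass (edgeR adjusted p = 0.23).

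Oocyte transcription factors left 81.6% and 42.5% at the list median, above the all-gene median in both MII libraries. None of 19 was called by edgeR, while 5 had an unadjusted p under 0.05 and DESeq2 called 3 lower. These shares were near the 24.6% and 16.3% of all genes. *Nobox*, a homeobox regulator of follicle genes, had 20051 and 18706 scaled counts at GV and 8871 and 1698 at MII. *Figla*, which activates zona genes, had 3017 and 2592 at GV and 812 and 115 at MII. *Esrrb*, an orphan nuclear receptor, had 18955 and 17908 at GV and 8499 and 2357 at MII. In all of these, MII replicate 1 lay under GV and replicate 2 lower again, with log2 fold changes of −1.87, −2.60 and −1.76. These named genes lay under both the list median of −0.76 and the all-gene median of −1.17.

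DNA methylation and imprint protection genes had the highest median of the 27 lists in MII replicate 1, at 114.3% of GV, and stood at 48.7% in replicate 2. None of 23 was called by edgeR or DESeq2, beside 3.28% and 16.3% of all genes called lower. No member had an unadjusted p under 0.05, beside 24.6% of all genes. *Dnmt1*, the maintenance methyltransferase, had 44763 and 37339 scaled counts at GV and 67779 and 20905 at MII, on opposite sides of GV. *Dppa3*, which protects the maternal genome from demethylation, had 516767 and 439392 at GV and 363463 and 345183 at MII, lower in both libraries, with a log2 fold change of −0.43.

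Spindle and chromosome lists lay above the all-gene median in both MII libraries. The list medians left 94.6% and 45.2% for spindle assembly and 82.5% and 38.1% for the checkpoint list. Both MII libraries lay under both GV libraries for 22 of 48 and 21 of 40 genes, beside 61.4% of all genes. DESeq2 called 8 of 48 and 3 of 40 members lower, beside 16.3% of all genes. edgeR called 1 in each list, near the 3.28% of all genes. In the spindle assembly list 1 of 48 fell, *Tubb4b*, a beta-tubulin, with 24236 and 20406 scaled counts at GV and 3428 and 591 at MII, and it fell by 3.47 ± 0.81 (log2, edgeR adjusted p = 0.048). In the checkpoint list 1 of 40 fell, *Spc25* of the NDC80 complex, with 6305 and 4608 at GV and 910 and 311 at MII, and it fell by 3.16 ± 0.71 (log2, edgeR adjusted p = 0.046). *Aurkc*, the meiotic Aurora kinase, had 25260 and 26619 at GV and 36072 and 31301 at MII, both above GV, with a log2 fold change of 0.38. *Birc5*, its partner survivin, had 33052 and 29090 at GV and 27711 and 19548 at MII, both under GV, with a log2 fold change of −0.39.

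RNA processing and transcription lists were kept by position. Spliceosome genes left 73.0% and 38.9% at the median and 4 of 61 fell. In RNA polymerase II and its general factors 3 of 74 fell, and 1 of 51 nucleoporins and karyopherins, beside 3.28% of all genes. DESeq2 called 9, 10 and 3 members of these lists lower, beside 16.3% of all genes. None of 24 genes of polyadenylation and translational control was called by edgeR or DESeq2, with 1 at an unadjusted p under 0.05, beside 24.6% of all genes. No DNA repair gene of 30 was called by edgeR, with 6 at that level and 4 called lower by DESeq2, beside the same 24.6% and 16.3%. *Lsm3*, of the ring that binds U6 RNA, had 170719 and 161034 scaled counts at GV and 17881 and 8150 at MII. It fell by 3.67 ± 0.54 (log2, edgeR adjusted p = 0.030). *Med29*, a Mediator subunit, had 2869 and 2739 at GV and 77.1 and 27.9 at MII and fell by 5.74 ± 0.83 (log2, edgeR adjusted p = 0.030). *Tarbp2*, a partner of Dicer, had 2644 and 3164 at GV and 218 and 146 at MII and fell by 3.99 ± 0.69 (log2, edgeR adjusted p = 0.032). *Ago4*, an Argonaute protein, had 135 and 76.5 at GV and no count at MII, at least 84.3-fold lower against a floor of 3 counts over both MII libraries (edgeR adjusted p = 0.035). The small RNA list that holds both lay above the median in MII replicate 1, at 68.7%, and under it in replicate 2, at 20.7%.

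The 10 deepest called declines among well-counted genes included 3 striated muscle markers. *Iqcf1* had 1868 and 1229 scaled counts at GV and 29 and 6.45 at MII and fell by 6.46 on the log2 scale. *Nr1h3*, the liver X receptor alpha, had 708 and 597 at GV and 5 and 5.73 at MII and fell by 6.89 ± 0.94 (edgeR adjusted p = 0.030). *Ltc4s*, leukotriene C4 synthase, had 883 and 694 at GV and 10 and 0 at MII and fell by 7.35 ± 1.38 (edgeR adjusted p = 0.035). All of these were near 0 in both MII libraries. *Lamb2*, a laminin chain, had 2800 and 2145 at GV and 78.1 and 7.16 at MII, and *Kcnj13*, a potassium channel, had 473 and 462 at GV and 8.01 and 2.87 at MII. *Pyurf* had 477 and 448 at GV and 6 and 6.45 at MII.

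The cardiac actin gene *Actc1* had 674 and 350 scaled counts at GV and none at MII, and *Tnnt2*, cardiac troponin T, had 528 and 424 at GV and none at MII. *Myh6*, a cardiac myosin, had 1793 and 1142 at GV and 13 and 1.43 at MII. Of 14 muscle markers tested 10 fell, beside 3.28% of all genes. The list median log2 fold change was −7.22 in KO and 0.39 in WT. *Wfdc10*, a gene of the WAP domain family, had 61.9 and 971 at GV and none at MII, with the GV libraries far apart.

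*Gm15107*, a predicted gene, was the only one called higher, with no count at GV and 38 and 98.8 scaled counts at MII (at least 30.4-fold higher against a floor of 3 counts over both GV libraries, edgeR adjusted p = 0.048). It has a low count and a Gm name, and was named after its values were seen. With TMM scaling, which sets genes against the rest of the pool, more were called higher. *Cpne1*, a calcium-dependent membrane-binding protein, had 175 and 70.2 at GV and 865 and 697 at MII. Its log2 fold change was 2.68 ± 0.79 on ERCC (edgeR adjusted p = 0.079) and 3.93 with TMM (edgeR adjusted p = 0.031). *Lmbr1* had 1091 and 1436 at GV and 3674 and 3483 at MII, with 1.5 ± 0.59 on ERCC and 2.70 with TMM (edgeR adjusted p = 0.044). *Zbtb44*, a zinc finger protein, had 996 and 748 at GV and 2463 and 1387 at MII, with 1.14 on ERCC and 2.25 with TMM (edgeR adjusted p = 0.025). In each of these genes both MII libraries lay above both GV libraries on the ERCC scale.

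The elements of 2 of these genes are printed for comparison with the recruited mRNAs, again with TTTTAT in capitals.
*Cpne1*, chr2:156071920-156071941, − strand: tttcatgtTTTTATattccata
*Lmbr1*, chr5:29229839-29229860, − strand: tgaggtacTTTTATtgtaactt
Among the 10 genes with the highest fold changes called with TMM scaling, 9 had a 3′ UTR of at least 100 bases and 5 of these (55.6%) held the element in the last 100 bases, beside 19% of all genes with the window. Over all genes with the window, 77 of those with the element (3.14%) and 120 of those without it (1.16%) were called higher with TMM scaling.

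Transcript features were set beside the fold changes for 12830 tested coding genes with a 3′ UTR of at least 100 bases. The letters TTTTAT or TTTTAAT, searched on the sense strand of the last 100 bases, occurred in 2455 of them (19%). Genes with the element had a median log2 fold change of −0.71, with −0.31 in MII replicate 1 and −1.37 in replicate 2, and the 10375 genes without it had −1.21, with −0.71 and −2.08. With genes split into 5 equal groups by transcript GC content the gap was present in each, from −0.65 against −0.81 at the lowest GC to −0.99 against −1.73 at the highest. In WT the medians were −0.47 with and −1.02 without the element. By list, the shares with the element overlapped between kept and cleared functions. Among kept lists it ranged from 36.4% of the DNA methylation genes and 28.6% of the recruited mRNAs to 15% of the m6A pathway and 0 of 20 genes of polyadenylation and translational control. Among cleared lists it ranged from 18.4% of the cytosolic ribosomal genes to 3.33% of the chaperones. These are matches of letters in one window of one transcript per gene.

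Other features moved with the fold change as well. Genes with TATTTAT, an AU-rich element, in the same window (4.21%) had a median of −0.86 against −1.12 without it, and genes with TGTANATA, a Pumilio element (4.81%), had −0.92 against −1.12. Of 5 equal groups by transcript length, the shortest had a median of −1.59 and 8.05% called lower, and the longest had −0.84 and 1.29%. Of 5 groups by GC content, the lowest had −0.79 and the highest −1.71. Cytosolic ribosomal genes had a median transcript length of 869 bases and recruited mRNAs 2422, so function and length were not separated here, and the part of length in the list medians was not tested.

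**Figure D4:**
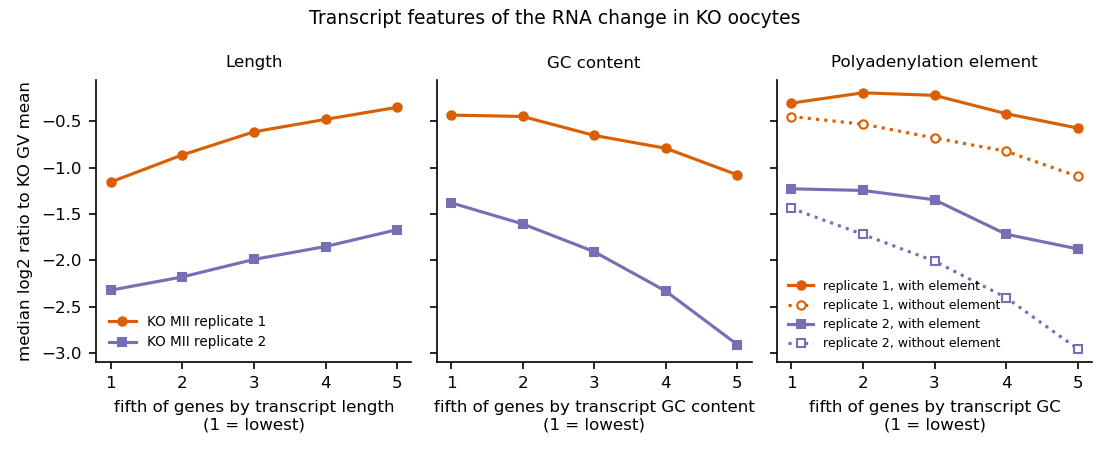
Median log2 ratio of scaled counts to the KO GV mean in 5 equal groups of genes by transcript length and by GC content, and for genes with and without a CPE in the last 100 bases of the 3′ UTR within the GC groups, for KO MII replicates 1 and 2. The shortest and the most GC-rich groups lie lowest, and genes with the element lie above those without it in each GC group and both libraries.

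The same genes with ALKBH5 present give the reference for these changes, and the KO and WT comparisons share no library. In WT 5747 genes fell (30.5%) and 74 rose (0.393%), and 503 of the 615 genes that fell in KO (81.8%) also fell in WT. A gene called in one genotype only is not thereby shown to differ, and edgeR's test of the stage by genotype term called 0 of 20807 genes, while 1197 (5.75%) had an unadjusted p under 0.05. DESeq2 called 91 (0.437%) in the direction of less decline in KO and 63 (0.303%) of more, and edgeR with TMM scaling called 63 (0.303%) and 8 (0.0384%). Of the 9 lists cleared in KO, 8 lay under the median in both WT MII libraries, translation initiation factors being above it in both, and of the 16 kept, 15 lay above it in both, the egg coat list being the exception.

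Of the 9 cleared lists 4 had a less negative median in KO than in WT and 5 a more negative one. For cytosolic ribosomal proteins the median log2 fold change was −2.22 in KO and −3.57 in WT, where 75 of 82 fell. The median of the genotype difference was 0.99, and 22 members had an unadjusted p under 0.05, although the smallest adjusted p in the list was 0.187 (edgeR). For nuclear oxidative phosphorylation the medians were −1.41 in KO and −2.40 in WT, with a median difference of 0.79 and 25 members at an unadjusted p under 0.05. For mitochondrial ribosomal proteins the medians were −2.28 in KO and −2.65 in WT, with a median difference of 0.16, and for antioxidant enzymes −1.60 and −1.72. The medians were more negative in KO for proteasome subunits (−1.84 against −1.64 in WT) and glycolysis and the citric acid cycle (−1.79 against −1.43). So were those of synthetases (−1.66 against −1.49), initiation factors (−1.38 against −0.99) and chaperones (−1.37 against −1.19). Median genotype differences were −0.06, −0.29, −0.21, −0.11 and 0.005 for these lists in order, and −0.04 for antioxidant enzymes. Over all tested genes the median difference was −0.07, with medians of −1.17 in KO and −1.06 in WT.

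**Figure D5:**
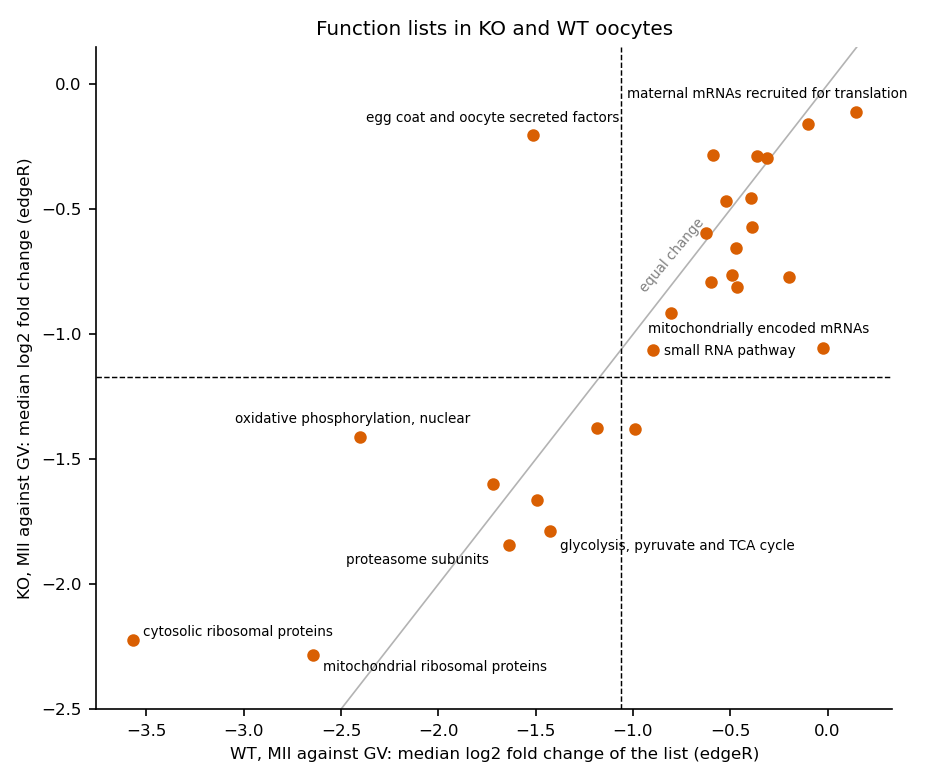
Median log2 fold change from GV to MII of each list in WT (horizontal axis) and KO (vertical axis), with the diagonal of equal change and dashed lines at the all-gene medians. Cytosolic ribosomal proteins, nuclear oxidative phosphorylation and the egg coat list lie above the diagonal, at less decline in KO, and mitochondrially encoded mRNAs lie below it.

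The genes named for the genotype difference did not pass the adjusted threshold either. *Rps29*, whose KO libraries overlapped, had 7603 and 6141 scaled counts in WT GV and 782 and 867 in WT MII, and the genotype difference of 3.03 ± 0.59 on the log2 scale did not pass (edgeR adjusted p = 0.234), while DESeq2 called it. *Pet100*, an assembly factor of complex IV, had 9497 and 9072 at KO GV and 8688 and 6374 at KO MII, against 10328 and 8946 and then 573 and 582 in WT. The difference was 3.76 ± 0.60 (edgeR adjusted p = 0.136, and 0.029 with TMM scaling). *Cox7c*, a subunit of complex IV, had 11013 and 8171 at KO GV and 7632 and 4039 at KO MII, against 25610 and 12954 and then 559 and 615 in WT, a difference of 4.32 ± 0.72 (edgeR adjusted p = 0.182). In these genes the WT MII libraries lay several-fold under every KO MII library.

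*Chchd2*, a mitochondrial intermembrane protein, had 6136 and 5971 scaled counts at KO GV and 4464 and 1829 at KO MII, against 5359 and 4627 and then 157 and 132 in WT, a difference of 4.17 ± 0.72 (log2, edgeR adjusted p = 0.187). *Rps27* had 10245 and 8725 at KO GV and 5587 and 2506 at KO MII, against 9650 and 9149 and then 288 and 240 in WT, a difference of 3.93 ± 0.69 (edgeR adjusted p = 0.187). Both were called by DESeq2 and by edgeR with TMM scaling. In the other direction *Phc2*, a Polycomb protein, had 1014 and 651 at KO GV and 60 and 35.1 at KO MII, against 332 and 560 and then 843 and 414 in WT, a difference of −4.63 ± 0.89 (edgeR adjusted p = 0.234) that DESeq2 and edgeR with TMM scaling called. *Zp2* had 67393 and 73557 at WT GV and 15924 and 7804 at WT MII, and its difference of 2.08 ± 0.67 did not pass (edgeR adjusted p = 0.57), nor in DESeq2, but did with TMM scaling (edgeR adjusted p = 0.035).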

How the data were processed

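Polyadenylated RNA of pooled oocytes was sequenced in 12 libraries. The authors deposited whole-number counts per gene and per ERCC sequence without normalization. Their processing notes name cutadapt 1.9, HISAT2 2.0.4 and StringTie 1.3.4d, with uniquely mapped reads kept on mm10. The annotation release, the use of strand and the step giving whole counts are not given in the sources used here. The table held 56691 genes and 92 ERCC sequences, and 52073 genes (91.9%) matched a symbol. Totals ranged from 28557742 to 40247810 counts per library. Since PCR copies were not collapsed by molecular identifiers, floors of 3 counts cover counting error only.

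Counts were fitted with edgeR 4.0.16 in R 4.3.3 (glmQLFit and glmQLFTest, two-sided) with library sizes in proportion to summed ERCC counts (221927 to 838409 per library) and genes kept by filterByExpr. The written design did not say which library sizes that filter should read. ERCC-scaled and deposited sizes were both fitted, and the deposited sizes were taken as the main setting after both counts of calls had been seen, to follow earlier processing of these data. p-values were adjusted by Benjamini-Hochberg over all tested genes. The KO and WT comparisons used 4 libraries each, and the genotype difference was an interaction term over 8. Standard errors were the absolute log2 fold change over the root of F. Ratios per library used scaled counts plus 1. The fits were tested on simulated data. DESeq2 1.42.0, TMM and median-of-ratios scaling, other filters, a replicate block, all libraries in one model and leaving out each library were alternatives.

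The comparison, the 27 function lists and the 4 marker lists were chosen with earlier results of these data known. Genes named were *Alkbh5*, genes of the study's text, members of short lists, the members with the 2 lowest and 2 highest fold changes of each list, the 10 lowest called genes of at least median count whose stages did not overlap, the 10 highest called with TMM scaling, and 5 genes in each direction with the smallest p for the genotype difference. Of the genes allowed by this rule a selection is printed, made with their values in view. 3′ UTRs came from GENCODE M21 on GRCm38, the build of the files, and a complete coding transcript was found for 13910 of 13966 tested coding genes (99.6%).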

Additional observations from a re-analysis of the deposited data

Results flagged for a closer look

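For 3 of the named genes every KO library moved one way from GV to MII and every WT library the other. None of the 3 passed the edgeR test of the genotype difference, whose estimates for 2 of them rest on groups without any count. DESeq2 called *Gm15107* (adjusted p = 5.67e-06) and *Rbp4* (adjusted p = 5.92e-06) but not *Zbtb44* (adjusted p = 0.723), and TMM scaling called none of the 3. *Gm15107* had no count at KO GV and 38 and 98.8 scaled counts at KO MII, against 151 and 337 at WT GV and 19 and 20.2 at WT MII. The fitted log2 difference, KO minus WT, was 12.83 (edgeR adjusted p = 0.113).

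*Rbp4*, a retinol carrier, had 668 and 327 scaled counts at KO GV and 33 and 58 at KO MII, against none at WT GV and 227 and 7.71 at WT MII. Its fitted log2 difference was −13.42 (edgeR adjusted p = 0.236). *Zbtb44* had 996 and 748 at KO GV and 2463 and 1387 at KO MII, against 1750 and 1781 at WT GV and 1727 and 276 at WT MII, a log2 difference of 1.96 (edgeR adjusted p = 0.945). The 2 WT MII libraries of *Zbtb44* stood far apart.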

How the results depend on the processing

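The 616 genes called between KO MII and KO GV (615 lower, 1 higher) moved to 951 with TMM scaling (727 lower, 224 higher), 2659 without a filter on low counts, 2454 with at least 10 counts in every library, 3068 with DESeq2, 222 with the filter on ERCC-scaled library sizes, an alternative added after the data were seen, and 3214 with all 12 libraries in one model. Median-of-ratios scaling gave 905 (707 lower, 198 higher), and a restriction to ERCC sequences with at least 10 counts or no fold minimum left 616. Leaving out one library gave 39 to 11075 calls. With the replicate block the count was 2462 and included all 615 lower genes. Deviations of same-numbered KO libraries correlated at 0.067 across genes, a value that does not see a shift common to all genes. In every group replicate 1 held more endogenous counts per ERCC count than replicate 2. Whether the replicate numbers mark a shared batch was not tested. Leaving out one library moved the WT count of 5821 to between 2853 and 5347. The genotype difference moved from 0 calls to 71 with TMM, 119 with median-of-ratios scaling, 346 without a filter, 63 with at least 10 counts in every library and 154 with DESeq2, and to between 0 and 285 without one library. The block left it at 0.

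Without KO MII replicate 1 the log2 fold change reversed to a called decline for *Cnot4* (−1.11, and 0.69 without replicate 2), *Rcc1* (−4.32, and 1.49) and *Cdc25b* (−1.01, and 0.64), whose replicate 1 lay above GV and replicate 2 below. Of the other alternative values of named genes 4671 kept direction and side of the threshold, 545 passed it only in the alternative and 104 only in the main setting. List medians moved by no more than the replicate spread in 200 of 248 alternatives. With 2 libraries a stage and adjusted p near 0.05 throughout, counts of called genes in a list are less stable than the library medians.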

Other observations

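At the KO GVBD time point the median log2 ratio to the KO GV mean was −0.16 and −0.20 in the 2 GVBD libraries for cytosolic ribosomal proteins, −0.17 and −0.23 for nuclear oxidative phosphorylation and 0.15 and −0.18 for the recruited mRNAs. Of the 9 lists cleared at MII the lowest GVBD median was −0.55, for antioxidant enzymes in replicate 2. *Rps29* had 8245 and 5736 scaled counts there and *Iqcf1* had 1810 and 1387. Striated muscle markers differed between the GVBD libraries, at −7.41 and 0.59, and blood and immune markers stood at −4.67 and −2.88.

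*Actb*, which the study used as an internal control, had 2350 and 2138 scaled counts at KO GV and 1409 and 915 at KO MII, a log2 fold change of −0.95 (edgeR adjusted p = 0.358) near the median of all genes. *Iqcf1* and *Lamb2* were as low in WT MII, with 6.38 and 11.6 and with 40.7 and 41.0 scaled counts.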
